A study of Homo sapiens with 4 samples.

Results

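The genes described here are 31 genes of cholesterol synthesis and of the SREBP program, chosen by name as pathway members. A measured value entered the rule only where a symbol was repeated, when the row with the highest mean was taken. The choice was made with earlier results of these data known. All 31 were found among the 58365 rows of the expression table, and all 31 were among the 14022 rows tested. They comprise 8 genes that act from acetyl units to isoprenoids, 11 genes that act from squalene formation to sterols, 4 genes of SREBP control, the sterol carrier STARD4 and 7 genes of fatty acid synthesis and desaturation. The list does not hold every step of the pathway.

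RNA was measured by RNA-seq in derivatives of H1, an established human embryonic stem cell line, at day 2 of a hematopoietic differentiation. All 4 libraries came from cells given activin A at 40 ng/ml and BMP4 at 50 ng/ml, as the labels state them, in a custom medium based on mTeSR1. Cells of the DMSO group (2 libraries) received the solvent, and cells of the IWP2 group (2 libraries) received IWP2, an inhibitor of the acyltransferase Porcupine, which attaches a fatty acid to Wnt proteins and is needed for their release. The dose of IWP2 is not given in the sources used here. A single cell line was used, and nothing says whether the 2 libraries of a group came from separate cultures, so the p-values measure only the spread between these libraries, which may be technical. The comparison addresses how sterol and SREBP genes stood when cells were kept from making active Wnt during mesoderm induction. Values are FPKM, fragments scaled by transcript length and by the mapped total of the library, a unit inferred from the values. Because FPKM is per length, levels are set side by side between genes, but only roughly. Reads of overlapping genes, for example, may be split between them.

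Cholesterol is built from acetyl-CoA. Enzymes of the mevalonate pathway join acetyl units into isoprenoid chains, squalene synthase joins a pair of these chains, and a series of sterol enzymes closes the rings and trims the product. When membrane sterol is low, SCAP carries the SREBP transcription factors from the endoplasmic reticulum to the Golgi, where they are cut and freed to enter the nucleus. INSIG proteins hold SCAP back when sterol is plentiful. SREBP factors also act on fatty acid genes, among them SCD, the desaturase that makes the monounsaturated palmitoleate found on Wnt proteins.

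The treatment moved lineage genes widely. The Wnt target SP5 was at 53.2 and 47.0 FPKM in the DMSO libraries and at 0.379 and 0.363 with IWP2. Of the 7 Wnt targets listed as a check, 4 fell and none of the others passed the test. All 6 tested genes of primitive streak and mesoderm fell, and their summed level was 873 to 1087 FPKM with DMSO and 49.1 to 53.2 FPKM with IWP2. Of 6 pluripotency genes 4 rose and 1 fell, with a summed level of 941 to 1111 FPKM against 2243 to 2251 FPKM. POU5F1 made up most of that sum, at 751 and 571 against 1854 and 1844 FPKM. TDGF1 fell, from 203 and 221 to 103 and 98.6 FPKM. SOX2 was at 0.193 and 0.174 FPKM with DMSO and at 35.6 and 36.1 with IWP2. Among the 4 endoderm genes 3 fell, with sums of 1891 to 2290 against 122 to 132 FPKM. CER1 made up most of the DMSO sum, at 1612 and 2048 FPKM, and was at 38.6 and 34.2 with IWP2. SOX17 did not pass the test, at 155 and 104 against 79.7 and 94.9 FPKM. Of 5 amnion or trophoblast genes 2 rose and 2 fell, with sums of 296 to 384 against 175 to 199 FPKM. That sum was set mostly by HAND1, at 234 and 322 against 101 and 119 FPKM. The authors count HAND1 among mesenchymal genes, so the sum is not particular to amnion or trophoblast. TFAP2A rose from 16.5 and 12.01 to 34.05 and 34.2 FPKM and KRT7 from 0.833 and 0.864 to 5.85 and 8.22 FPKM. Of the 3 neural genes only NES was tested, and it rose, at 87.1 to 98.6 against 125 to 136 FPKM. PAX6, too low to be tested, went the other way, at 1.33 and 0.646 against 0.0838 and 0.0278 FPKM. SOX1 was near 0 throughout. Of the endothelial and blood genes 1 was tested and fell, at 53.2 to 60.4 against 35.7 to 38.6 FPKM, and PTPRC was near 0 throughout. Of 5 proliferation genes 0 passed the limma test, and 0 had an unadjusted p under 0.05, where 15.2% and 30.3% of all rows did. Markers of several cell types thus moved with the treatment, and in bulk RNA a change in the share of a cell type and a change per cell cannot be told apart. The part of this difference in the results on sterol genes was not tested.

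Across all 14022 rows, limma called 2129 at an adjusted p under 0.05, which is 15.2%, with 946 higher (6.75%) and 1183 lower (8.44%) with IWP2. Of the 31 sterol and SREBP genes 4 were called, or 12.9%, a share near that background. The 3 that rose were FDFT1, TM7SF2 and SC5D, all sterol enzymes, and the 1 that fell was FADS1, a fatty acid desaturase. The other 27 genes did not pass the test, which does not show that they were unchanged. At an unadjusted p under 0.05 by limma there were 8 of the 31 genes (25.8%) and 4245 of all rows (30.3%).

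Promoter sequence is shown for the called genes with an entry in the RefSeq promoter table (GRCh38.p14). It is also shown for SREBF2, whose window held the form of the sterol element that was searched for. Each line gives the 150 bases before the start annotated in RefSeq, 5′ to 3′ on the strand of the gene. These starts differ from those of the gene spans given below, and the stretches of SC5D and FADS1 lie inside those spans. Capitals mark TCACNCCAC, a form of the sterol regulatory element, CCAAT, the box bound by NF-Y, and CACGTG, an E-box, searched on both strands, so that CCAAT reads ATTGG on the other strand.
SC5D, chr11:121292621-121292770, plus strand: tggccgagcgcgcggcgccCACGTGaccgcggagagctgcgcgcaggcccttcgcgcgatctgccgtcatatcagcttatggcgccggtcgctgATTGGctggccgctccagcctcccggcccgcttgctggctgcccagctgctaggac
TM7SF2, chr11:65111722-65111871, plus strand: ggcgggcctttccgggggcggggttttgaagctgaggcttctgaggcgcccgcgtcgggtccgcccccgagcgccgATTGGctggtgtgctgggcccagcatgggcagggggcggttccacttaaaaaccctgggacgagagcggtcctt
SREBF2, chr22:41832955-41833104, plus strand: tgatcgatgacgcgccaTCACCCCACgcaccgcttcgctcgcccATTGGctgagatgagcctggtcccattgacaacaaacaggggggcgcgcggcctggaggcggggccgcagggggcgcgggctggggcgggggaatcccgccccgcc
FADS1, chr11:61817004-61817153, minus strand: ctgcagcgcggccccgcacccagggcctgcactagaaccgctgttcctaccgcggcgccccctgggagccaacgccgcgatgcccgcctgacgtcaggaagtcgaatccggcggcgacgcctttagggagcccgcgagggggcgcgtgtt

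The table had windows for 27 of the 31 genes, 38 windows in all, each running from 250 bases before to 50 bases after a start, and some windows of a gene overlap. For 31 of the 38 windows, bases after the start were found in a GENCODE transcript of that gene. The others were kept in the shares below. TCACNCCAC was found in 1 of the 38 windows (2.63%), against 1.13% of all 35116 windows, and that window was of SREBF2, where it began 133 bases before the start. Only this form of the sterol element was searched, so windows without it may hold other forms. CCAAT was found in 25 windows (65.8%) against 34.6% of all windows. CACGTG was found in 5 windows (13.2%) against 7.26% of all windows and 9.30% of the windows of genes tested here, in INSIG1, LSS, SC5D and SCAP. The window of SC5D held CACGTG 131 bases and CCAAT 56 bases before the start, and that of TM7SF2 held CCAAT 74 bases before it. The FADS1 window held none of these letters. The matches describe letters in a window and were not linked to binding here.

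The 31 genes were well expressed. All 31 had a mean above the median of rows tested, 10.2 FPKM, and 27 lay in the top 25%. SCD was the highest at a mean of 319 FPKM, followed by FADS2 at 291, FDFT1 at 278, FASN at 274 and FDPS at 253. PMVK was the lowest at 13.7 FPKM, next to GGPS1 at 16.5. The summed level of the 31 genes was 3336 and 3005 FPKM in the DMSO libraries and 3496 and 3488 FPKM in the IWP2 libraries.

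**Figure D1:**
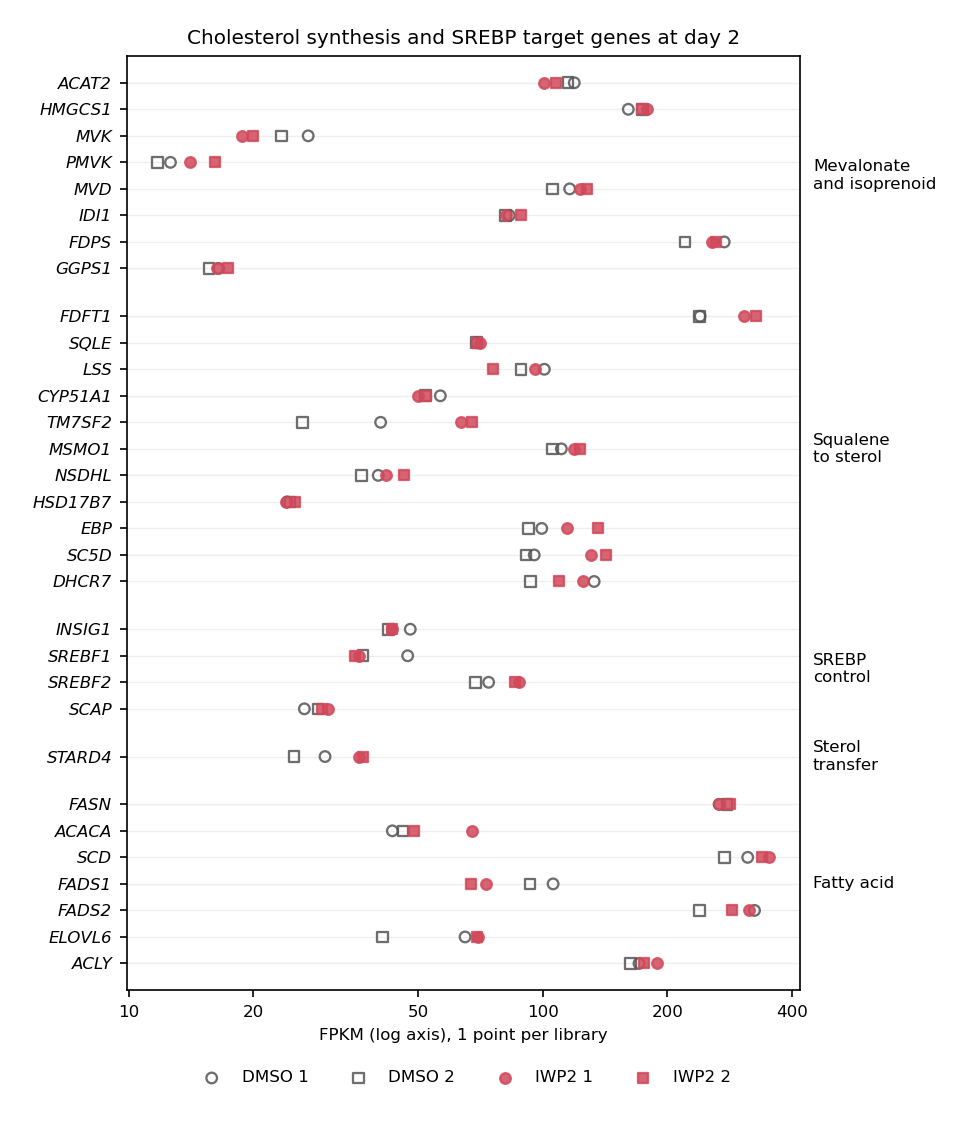
FPKM of each of the 31 genes (log axis), with 1 point per library, open for DMSO and filled for IWP2, grouped by role. Most genes have their 4 points close together, while the filled points of TM7SF2, SC5D and FDFT1 lie to the right of the open ones and those of FADS1 to the left.

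Genes of the mevalonate steps showed no call among 8, where 15.2% of all rows were called. By limma 1 of the 8 had an unadjusted p under 0.05 (12.5%), against 30.3% of all rows. HMGCS1, which condenses acetyl units, was at 161 and 174 FPKM with DMSO and at 179 and 174 with IWP2, a log2 difference of 0.07 ± 0.082 (SE). Its libraries overlapped between the groups. The gene with the lowest unadjusted p was MVK, the kinase that phosphorylates mevalonate, at 27.1 and 23.4 against 18.8 and 19.99 FPKM. Both IWP2 libraries lay below both DMSO libraries, with a log2 difference of -0.36 (95% interval -0.64 to -0.08) and an adjusted p of 0.096, which missed the threshold. Of all rows, 31.9% had both IWP2 libraries below both DMSO libraries and 27.9% had both above. The next kinase, PMVK, was at 12.6 and 11.7 against 14.1 and 16.2 FPKM, a log2 difference of 0.29 with an adjusted p of 0.167. These 2 kinases act one after the other, and their values lay on opposite sides of 0.

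ACAT2, which joins the first acetyl units, was at 119 and 115 FPKM with DMSO and 101 and 108 with IWP2, an adjusted p of 0.248. MVD, the decarboxylase that makes isopentenyl diphosphate, was at 116 and 106 against 123 and 128 FPKM. For both genes the groups did not overlap, which was common among all rows. The directions were opposite, and neither gene passed the test. IDI1, the isomerase of that product, had a log2 difference of 0.05 (95% interval -0.16 to 0.26). FDPS, which makes farnesyl diphosphate, was at 274 and 221 against 256 and 262 FPKM, and the spread between its DMSO libraries was wider than the difference between groups. GGPS1, which makes the longer geranylgeranyl chain, was at 16.5 and 15.6 against 16.4 and 17.4 FPKM.

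From squalene on, 3 of 11 genes rose and none fell, where 6.75% of all rows rose and 8.44% fell. FDFT1, squalene synthase and the first enzyme committed to sterols, was at 240 and 239 FPKM with DMSO and at 306 and 327 with IWP2. Both IWP2 libraries were above both DMSO libraries. The means were 239 ± 0.673 and 316 ± 14.6 FPKM (SD, n = 2 each), and the fold was 1.32 (95% interval 1.15 to 1.52) with an adjusted p of 0.030 by limma. Leaving out DMSO 1, DMSO 2, IWP2 1 or IWP2 2 gave adjusted p values of 0.102, 0.111, 0.128 and 0.177 for FDFT1, so each of these ended the call while the direction stayed. The gene lies at chr8:11795573-11839309 (GRCh38).

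SC5D, the desaturase that makes the last ring double bond before the final reduction, was at 95.4 and 91.1 FPKM with DMSO and at 131 and 142 with IWP2. The groups were well apart, at means of 93.3 ± 3.04 and 136 ± 8.01 FPKM (SD, n = 2 each). The fold was 1.46 (95% interval 1.25 to 1.69), with an adjusted p of 0.015 by limma, the lowest of the 31 genes. Leaving out DMSO 1, DMSO 2, IWP2 1 or IWP2 2 gave adjusted p values of 0.056, 0.074, 0.093 and 0.126 for SC5D. The gene lies at chr11:121292453-121308694 (GRCh38), and its promoter is among those printed above.

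TM7SF2, a sterol reductase, had the largest difference of the 31. It was at 40.6 and 26.3 FPKM in the DMSO libraries and at 63.5 and 67.7 in the IWP2 libraries. The DMSO libraries differed 1.54-fold from each other, and both were below both IWP2 libraries. The fold was 1.97 (95% interval 1.38 to 2.83), with an adjusted p of 0.035 by limma. The log2 difference was 1.28 without DMSO 1 and 0.68 without DMSO 2, and the adjusted p rose to 0.192 without IWP2 1 and 0.220 without IWP2 2. TM7SF2 (chr11:65111845-65116384, GRCh38) overlaps VPS51, which was at 69.5 and 58.6 against 67.0 and 70.0 FPKM (adjusted p 0.591). Reads from the shared stretch may have been split between these genes, since strand use in the counting is not given in the sources used here. The same limit holds for 11 of the 31 genes, which overlap another row with a mean of at least 1 FPKM. These are ACAT2, MVK, FDPS, GGPS1, TM7SF2, DHCR7, SREBF1, SREBF2, STARD4, FADS1 and FADS2.

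**Figure D2:**
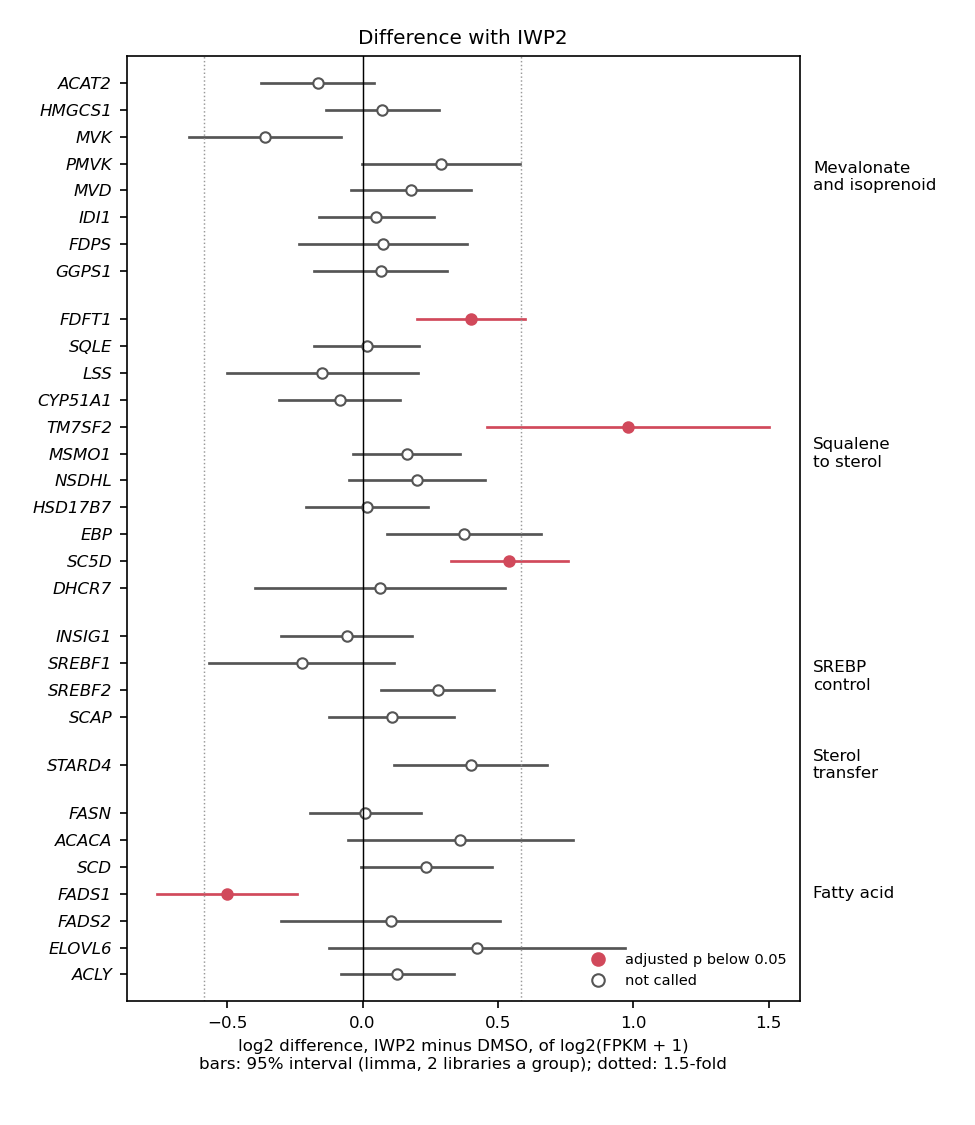
Log2 difference of each gene, IWP2 minus DMSO, on the log2(FPKM + 1) scale, with 95% intervals from limma (2 libraries a group) and dotted lines at 1.5-fold. The filled points are the 4 called genes, of which TM7SF2, at 0.98, is the farthest from 0.

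The other 8 sterol enzymes did not pass the test. EBP, an isomerase of the sterol ring, came nearest, at 99.5 and 92.5 against 114 and 136 FPKM, with a log2 difference of 0.38 (95% interval 0.09 to 0.66) and an adjusted p of 0.089. MSMO1 and NSDHL, which remove methyl groups from the ring, had log2 differences of 0.16 and 0.20, both with the IWP2 libraries above the DMSO libraries. SQLE, the oxygenase that follows squalene synthase, was at 69.3 in both DMSO libraries and at 70.5 and 69.6 with IWP2. Its log2 difference of 0.015 had a 95% interval of -0.18 to 0.21. LSS, which closes the rings, was at 101 and 88.6 against 95.7 and 75.8 FPKM, with overlap between the groups. CYP51A1, the demethylase of the first sterol, was at 56.6 and 52.1 against 50.0 and 52.4 FPKM. HSD17B7, a reductase of the steps in which MSMO1 and NSDHL act, was at 24.2 and 24.5 against 24.02 and 25.3 FPKM. DHCR7, a late reductase, ranged from 93.6 to 133 FPKM between the DMSO libraries, which was wider than its IWP2 range of 109 to 125. The called genes were thus at separate points of the route, with uncalled steps between them.

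Among the genes of SREBP control none of 4 was called, where 15.2% of all rows were. By limma 1 of the 4 had an unadjusted p under 0.05, against 30.3% of all rows. That gene was SREBF2, which encodes the factor best known for sterol genes, at 74.0 and 68.9 FPKM with DMSO and at 87.7 and 85.8 with IWP2. Its groups did not overlap, and the log2 difference was 0.28 (95% interval 0.07 to 0.49) with an adjusted p of 0.088. SREBF1, which encodes the factor tied to fatty acid genes, was at 47.2 and 36.8 against 35.9 and 35.1 FPKM, an adjusted p of 0.334. Both IWP2 libraries were below both DMSO libraries, but DMSO 2 was close to them. SREBF1 overlaps RAI1, which fell, at 12.2 and 11.9 against 5.98 and 4.81 FPKM (adjusted p 0.0091), and the part of shared reads in the SREBF1 value was not tested. INSIG1, itself a target of SREBP, was at 47.9 and 42.4 against 43.2 and 43.2 FPKM. SCAP was at 26.6 and 28.7 against 30.3 and 29.4 FPKM. The sterol carrier STARD4 was at 29.8 and 25.1 against 36.0 and 36.8 FPKM, a log2 difference of 0.40 (95% interval 0.12 to 0.68) with an adjusted p of 0.075, which missed the threshold.

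Among the 7 fatty acid genes FADS1 fell and no gene rose, where 8.44% of all rows fell and 6.75% rose. FADS1, a desaturase of long polyunsaturated chains, was at 106 and 93.2 FPKM with DMSO and at 73.1 and 67.0 with IWP2. Both IWP2 libraries were below both DMSO libraries. The fold was 0.707 (95% interval 0.591 to 0.845), with an adjusted p of 0.032 by limma. Leaving out DMSO 1, DMSO 2, IWP2 1 or IWP2 2 gave adjusted p values of 0.104, 0.059, 0.141 and 0.198 for FADS1. FADS2, the desaturase before it in the same route, was at 325 and 240 against 314 and 286 FPKM, with overlap between the groups. FADS1 was 32.6% and 38.9% of FADS2 in the DMSO libraries and 23.3% and 23.4% in the IWP2 libraries. FADS1 (chr11:61799625-61829318, GRCh38) lies within the span of FADS2, so reads from shared stretches may have been split between them.

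SCD, the desaturase whose product is placed on Wnt proteins, was at 313 and 274 FPKM with DMSO and 352 and 339 with IWP2. Its groups did not overlap, and its log2 difference of 0.24 (95% interval -0.01 to 0.48) had an adjusted p of 0.174. FASN, the fatty acid synthase, was at 267 and 279 against 266 and 283 FPKM, a log2 difference of 0.010 (95% interval -0.20 to 0.22). ACACA, which makes its malonyl substrate, was at 43.3 and 46.0 against 67.7 and 49.0 FPKM, and the IWP2 libraries were 1.38-fold apart. ACLY, which supplies acetyl-CoA from citrate, was at 171 and 163 against 189 and 176 FPKM. ELOVL6, an elongase, was at 65.0 and 41.0 against 69.7 and 69.3 FPKM. DMSO 1 was near the IWP2 libraries and DMSO 2 stood below them, so that the log2 difference was 0.42 with all libraries (adjusted p 0.263), 0.75 without DMSO 1 (adjusted p 0.028) and 0.096 without DMSO 2 (adjusted p 0.537).

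The differences were small. Of the 31 genes 30 differed by less than 1.5-fold (96.8%), against 82.1% of all rows and 87.3% of the 7115 rows with a mean of at least 10 FPKM. For 22 genes (71.0%) the whole 95% interval lay within 1.5-fold in either direction, against 48.2% and 67.3%. The median absolute log2 difference was 0.17 for the 31 genes and 0.17 for the rows of at least 10 FPKM. The median level was 83.7 FPKM for the 31 genes and 26.1 FPKM for those rows, so the sets were not matched on level, and the differences between them were not tested.

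**Figure D3:**
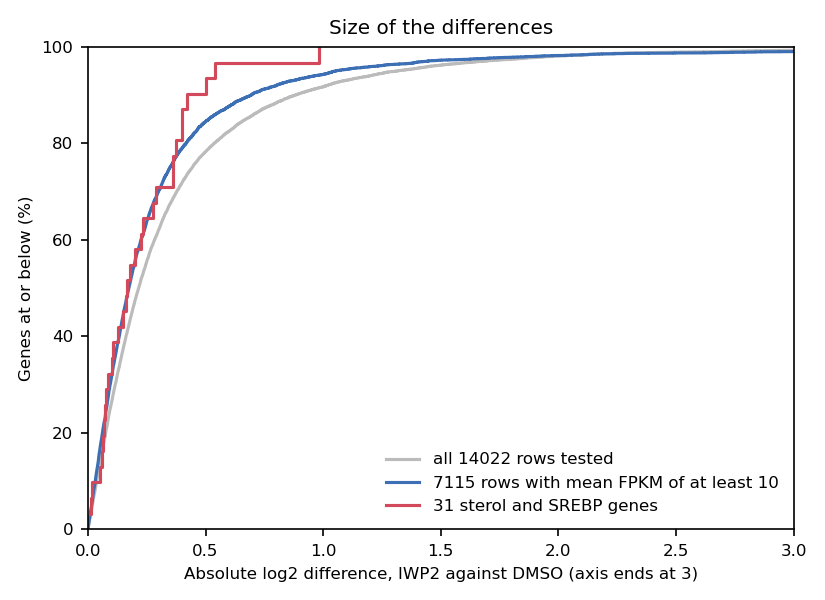
Cumulative share of genes (percent) by absolute log2 difference between IWP2 and DMSO, for all 14022 rows, the 7115 rows with a mean of at least 10 FPKM and the 31 genes. The curve of the 31 genes ends at 0.98, while those of the other sets run on past the end of the axis.

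Most of the small differences lay above 0. The log2 difference was positive for 24 of 31 genes (77.4%) against 47.6% of all rows, and the median was 0.10 against -0.02. The IWP2 libraries lay wholly above the DMSO libraries for 16 genes and wholly below for 4, where 27.9% and 31.9% of all rows did so. Genes of a shared pathway are not independent, so these counts are a description. The DMSO libraries also differed from each other, with DMSO 1 above DMSO 2 for 25 of the 31 genes (80.6%) against 49.9% of all rows. On the log2 scale the median of DMSO 1 minus DMSO 2 was 0.10 for the 31 genes and 0 for all rows. The median difference with IWP2, 0.10, was of the same size. IWP2 1 was above IWP2 2 for 14 genes (45.2%) against 47.3%, with medians of -0.03 and -0.01. The median difference with IWP2 of the 31 genes was 0.20 without DMSO 1 and 0.09 without DMSO 2, so the size of the lean moved with the DMSO library used. The number of genes above 0 was 24 without DMSO 1 and 21 without DMSO 2. It was 23 without IWP2 1 and 22 without IWP2 2. The part of the difference between DMSO libraries in the lean was not tested further.

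**Figure D4:**
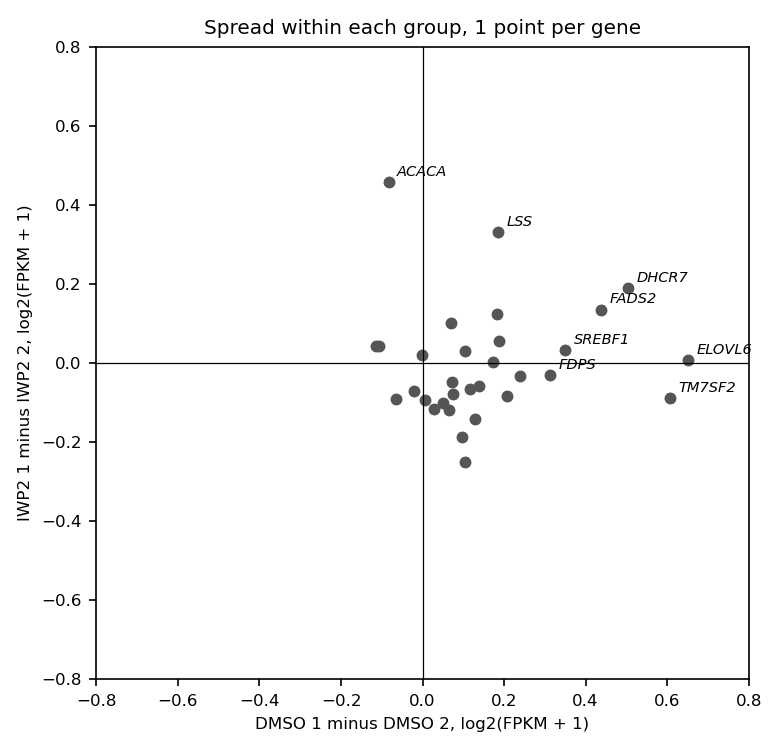
Difference between the libraries of a group on the log2(FPKM + 1) scale, DMSO 1 minus DMSO 2 across and IWP2 1 minus IWP2 2 upward, with 1 point per gene. Most points lie to the right of 0 (25 of 31), and ELOVL6, TM7SF2, DHCR7 and FADS2 are among the farthest right.

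Other lipid genes, and a list of 3 genes of Wnt acylation and deacylation, were set beside these. Of 55 genes in 6 lists, 52 were tested, 5 fell (9.62%) and none rose, where 8.44% of all rows fell and 6.75% rose. The Wnt list held 2 of the 5 that fell. At an unadjusted p under 0.05 by limma there were 17 (32.7%), against 30.3% of all rows, so the shares that fell and that had a low unadjusted p were near the background. No gene was called among 8 of SREBP processing, 5 of LXR and sterol efflux or 9 of isoprenoid branches, where 2, 1 and 3 had an unadjusted p under 0.05. Of 7 genes of sterol movement and esterification 1 fell, SOAT1, which esterifies cholesterol, from 6.06 and 5.12 to 2.22 and 2.73 FPKM (log2 difference -0.92, adjusted p 0.021). Of 20 other fatty acid genes 2 fell. LPIN1, a phosphatidate phosphatase, was at 12.4 and 8.36 against 1.61 and 1.45 FPKM, a log2 difference of -2.15 (adjusted p 0.0039). ELOVL2, an elongase of polyunsaturated chains, was at 2.39 and 3.26 against 0.402 and 0.367 FPKM, a log2 difference of -1.46 (adjusted p 0.011). Both differences were larger than that of any of the 31 genes.

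Of 3 genes that place or remove the fatty acid on Wnt proteins or carry acylated Wnt, 2 fell, where 8.44% of all rows fell. WLS, which carries acylated Wnt to the cell surface, was at 122 and 129 FPKM with DMSO and 71.0 and 60.7 with IWP2, a log2 difference of -0.92 (adjusted p 0.0061). NOTUM, the secreted enzyme that removes the fatty acid, was at 14.1 and 12.4 against 6.05 and 5.64 FPKM, a log2 difference of -1.06 (adjusted p 0.0064). PORCN, which encodes the enzyme IWP2 inhibits, was at 15.5 and 10.1 against 6.97 and 6.97 FPKM, a log2 difference of -0.77 with an adjusted p of 0.067, which missed the threshold.

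**Figure D5:**
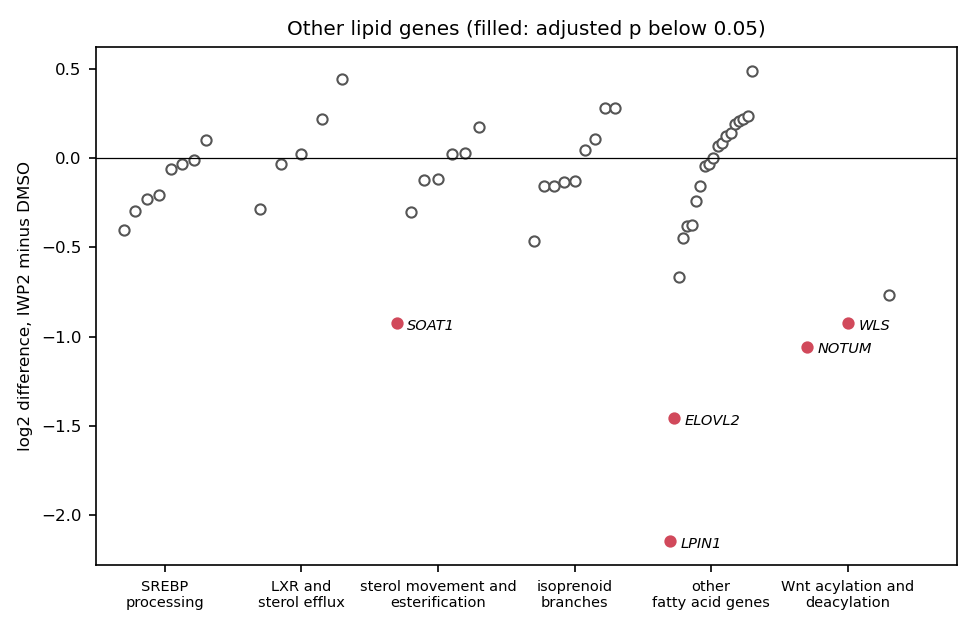
Log2 difference, IWP2 minus DMSO, of the 52 tested genes of lipids and of Wnt acylation outside the 31, by list. There is 1 point per gene, filled for an adjusted p under 0.05. The 5 filled points, LPIN1, ELOVL2, NOTUM, WLS and SOAT1, all lie below 0.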

How the data were processed

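RNA-seq was done on 2 DMSO and 2 IWP2 libraries with a TruSeq RNA kit. The authors deposited 1 table with a value per gene and library. The submitters' processing notes name BWA, Bowtie, RSEM and hg19, with no role or version. The deposited unit is not named; the values were read as FPKM, and the gene spans matched GRCh38 (55629 of 58365 rows had the GENCODE 29 span), so coordinates are given on that build. Columns marked with a minus sign were taken as cells without IWP2. The depth is unknown; low values put the libraries at 0.889 to 1.10 times the depth of DMSO 1.

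From the deposited FPKM, log2(FPKM + 1) was tested with limma (version 3.58.1, R 4.3.3) with an intensity trend, on rows with a mean of at least 1 FPKM, two-sided, with Benjamini-Hochberg adjustment over all 14022 rows and a threshold of 0.05. Fold changes are on that scale and understate changes of low genes. An exact permutation test of 2 against 2 cannot go below p = 0.333. Tables were made with Python 3.11.15. The script was tested on simulated data.

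The 31 genes, the other lists and the alternatives were chosen with earlier results of these data known. All listed genes are named; genes of the other lists are named where called with an absolute log2 difference of at least 0.5, with PORCN named in any case. Alternatives were another pseudocount (0.1), no filter, median-of-ratios and quantile scaling, a constant prior variance, a replicate block, and leaving out each library. Labels and methods give the activin A and BMP4 doses the other way round; the labels were followed.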

Additional observations from a re-analysis of the deposited data

How the results depend on the processing

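Under 10 alternatives, 278 of 310 values of the 31 genes kept their direction and side of the threshold, 21 lost a call, 1 gained one and 10 changed sign. FDFT1 and FADS1 were called under 4 of the 10, SC5D under 5 and TM7SF2 under 6, none with a change of sign. With no filter on low values, which tests 28917 rows, 118 rows were higher and 263 lower, and 0 of the 31 genes were called higher and 0 lower by limma, with 7 and 2 at an unadjusted p under 0.05. With a constant prior variance 1 of the 31 was higher (SC5D) and 0 lower, with 6 and 2 at an unadjusted p under 0.05. Leaving out 1 library gave 58 to 657 rows higher and 180 to 718 lower over all rows. It gave 0 to 2 of the 31 genes higher and 0 to 0 lower, and a median of the 31 of 0.0904 to 0.198. With 1 library left in a group, the lone library is assumed to vary like the other group.

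The genes that changed sign were uncalled in every fit. Over the 4 fits that leave out a library, the log2 difference ran from -0.0078 to 0.11 for IDI1, -0.082 to 0.23 for FDPS, -0.32 to 0.016 for LSS, -0.019 to 0.053 for HSD17B7, -0.19 to 0.32 for DHCR7, -0.15 to 0.028 for INSIG1, -0.035 to 0.055 for FASN and -0.11 to 0.32 for FADS2. The cause was not tested. With a replicate block, 862 rows were higher and 1065 lower, and 3 and 1 of the 31 genes. The correlation of the differences between replicates 1 and 2 in the 2 groups was 0.15 across 14022 genes, which are not independent, and with 2 pairs the numbers were taken as names only. The scalings moved the median of all rows by less than 0.1 on the log2 scale. Depth could not be read, and 2 libraries a group limit the precision.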
